A study of Mus musculus with 2 samples.

Results

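H3K27ac peaks were examined around 7 mouse genes for repressors of transcription: the zinc finger genes Gfi1 and Gfi1b, the E-box-binding genes Zeb1 and Zeb2, and the inhibitor-of-DNA-binding genes Id1, Id2 and Id3. They are 7 of 21887 protein-coding genes on chromosomes 1 to 19, X and Y, chosen by name, and each was taken with 100 kb on both sides (mm10). These windows held 59 of the 37234 peaks compared in the Gata2 KO list and 53 of the 34272 in the Gata2 f/f list. H3K27ac, the acetylation of histone H3 at lysine 27, marks active promoters and enhancers and was mapped by ChIP-seq. The cells were MA9 cells, a mouse acute myeloid leukaemia model driven by the MLL-AF9 fusion, collected from the marrow of primary animals. 1 library carried the Gata2 deletion (Gata2 -/-, called KO) and 1 carried the floxed gene (Gata2 f/f). Per the labels, cells received Cre or a control vector named MIT, were sorted for GFP and tdTomato, and were cultured with SCF, IL-3 and IL-6 for 7 to 9 days before ChIP. The labels give neither the number or sex of the animals nor which fluorescent marker went with which vector. With 1 library per genotype no difference below has a replicate check or a test, and each describes these 2 libraries.

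GFI1 and GFI1B are related repressors that recruit the histone demethylase KDM1A and its CoREST partner through a short domain called SNAG. GFI1 is known for granulocyte development and for restraining monocytic genes, and GFI1B for erythroid cells and megakaryocytes. ZEB1 and ZEB2 bind E-boxes with zinc fingers at both ends of the protein and repress through CtBP corepressors. ID proteins have a helix-loop-helix but no DNA-binding region, and they hold E proteins such as TCF3 away from DNA.

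The peak lists and the libraries differed as wholes in several ways. The KO list covered 48.6 Mb and the f/f list 46.3 Mb, with a median -log10 p per peak of 9.41 in KO and 12.2 in f/f. The number of reads is not given in the sources used here. A peak is called strong below when its -log10 p, the authors' value, was at or above its own list's median, and weak otherwise. Gene-end peaks were found at Uty, Kdm5d and Eif2s3y on the Y chromosome in the KO list alone, and at Xist in the f/f list alone. Ddx3y, also on the Y chromosome, had none in either list. Of the 15 markers listed for immature myeloid cells, 12 had a gene-end peak in KO, Mpo, Hoxa9 and Meis1 being without one there, and all 15 had one in f/f. Of the 6 stromal and endothelial markers, 0 had one in KO and 1 in f/f. Of the 3 megakaryocyte markers 2 did in each list, Pf4 and Gp9 in KO and Pf4 and Itga2b in f/f. In each of the B cell (4), T and NK cell (5), erythroid (5), mast cell (4) and other-organ (4) lists 1 marker had one in KO and 1 in f/f. Over all protein-coding genes the share with a gene-end peak was 50.3% in KO and 50.4% in f/f. The part of these differences in the values below was not tested, and with 1 library per genotype it cannot be told apart from that of genotype. In bulk ChIP, fewer cells with a mark and less of it per cell cannot be told apart either.

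Promoter sequence could be shown for 5 of the 7 genes, from RefSeq (GRCm38.p6, the build of mm10). The 250 bases before the outermost listed start are given for Gfi1, Zeb2 and Id2, where both lists had a peak, and for Gfi1b and Id3, where neither had one. Capitals mark matches, on either strand, to 4 forms of the GATA site (AGATAA as well as AGATAG, and further TGATAA as well as TGATAG), to 2 forms of the GFI site (AATCAC as well as AATCAG), and to the E-box forms CACCTG and, separately, CACGTG.
Gfi1, chr5:107725806-107726055, minus strand: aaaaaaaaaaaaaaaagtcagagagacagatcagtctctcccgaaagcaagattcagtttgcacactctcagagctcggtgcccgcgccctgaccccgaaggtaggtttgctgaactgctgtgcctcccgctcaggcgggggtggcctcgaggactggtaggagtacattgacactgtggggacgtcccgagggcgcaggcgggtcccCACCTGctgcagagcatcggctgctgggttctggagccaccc
Zeb2, chr2:45117443-45117692, minus strand: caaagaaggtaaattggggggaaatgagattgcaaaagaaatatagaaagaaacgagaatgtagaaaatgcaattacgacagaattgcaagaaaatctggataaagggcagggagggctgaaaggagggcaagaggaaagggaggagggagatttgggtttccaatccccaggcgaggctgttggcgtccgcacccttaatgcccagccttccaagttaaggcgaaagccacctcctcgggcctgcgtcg
Id2, chr12:25096093-25096342, minus strand: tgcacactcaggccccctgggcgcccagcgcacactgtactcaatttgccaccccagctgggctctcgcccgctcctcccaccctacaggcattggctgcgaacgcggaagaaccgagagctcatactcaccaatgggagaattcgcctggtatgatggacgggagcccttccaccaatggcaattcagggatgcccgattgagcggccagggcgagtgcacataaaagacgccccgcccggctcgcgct
Gfi1b, chr2:28621983-28622232, minus strand: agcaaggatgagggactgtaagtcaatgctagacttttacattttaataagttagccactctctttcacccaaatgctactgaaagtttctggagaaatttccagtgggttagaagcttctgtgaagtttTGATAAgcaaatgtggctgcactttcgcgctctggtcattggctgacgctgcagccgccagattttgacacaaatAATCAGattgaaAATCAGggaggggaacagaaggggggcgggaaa
Id3, chr4:136143572-136143821, plus strand: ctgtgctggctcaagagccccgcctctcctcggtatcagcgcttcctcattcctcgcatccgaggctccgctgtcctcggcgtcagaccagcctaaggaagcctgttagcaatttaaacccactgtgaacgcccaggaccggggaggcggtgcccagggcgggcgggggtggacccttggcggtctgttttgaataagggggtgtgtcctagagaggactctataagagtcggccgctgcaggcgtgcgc
The Gfi1b window held a match TGATAA at bases -120 to -115 and 2 matches AATCAG, at -45 to -40 and -33 to -28, counted from the base before the start. Of 21263 promoter windows of this length, 23.6% held a match of the GATA group and 20.5% one of the GFI group. The Gfi1 window held 1 CACCTG at -42 to -37, a motif found in 16.9% of windows. No listed motif was found in the windows of Zeb2, Id2 and Id3, and CACGTG was in none of the 5 and in 6.63% of all windows. No 2 of these matches overlapped.

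Over the 7 windows together, peaks covered 95483 bp in KO and 92335 bp in f/f, a ratio of 1.03, near the ratio of 1.05 over the whole of the compared chromosomes. Covered bases were higher in KO at Gfi1, Zeb2, Id2 and Id3 and lower at Gfi1b, Zeb1 and Id1. Stricter peak sets or narrower flanks put the ratio below 1 at Zeb2 (5 of 9 other settings, 0.861 to 0.997), Id2 (4 of 9, 0.456 to 0.871) and Id3 (2 of 9, 0.679 and 0.881). At Gfi1 it was below 1 in 2 of 9. It was 0.332 with peaks of at least 3-fold enrichment, and 0.809 with its gene-end peaks left out but the second f/f peak in the gene kept. The median ratio of the 7 was 1.06, and that of all 17490 genes with peaks of both lists in their windows was 1.05. No member was at least 1.5-fold higher in KO, a size reached by 10.2% of the 18321 genes with a peak in the window. Zeb1 alone was at least 1.5-fold lower in KO, as were 7.52% of genes, and it rested on 1 weak peak per list. At 2-fold, 0 members were called either way, against 4.96% of genes higher and 4.09% lower in KO. Of all bases covered in these windows, 74044 bp were under peaks of both lists, 21439 bp under KO peaks alone and 18291 bp under f/f peaks alone.

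**Figure D1:**
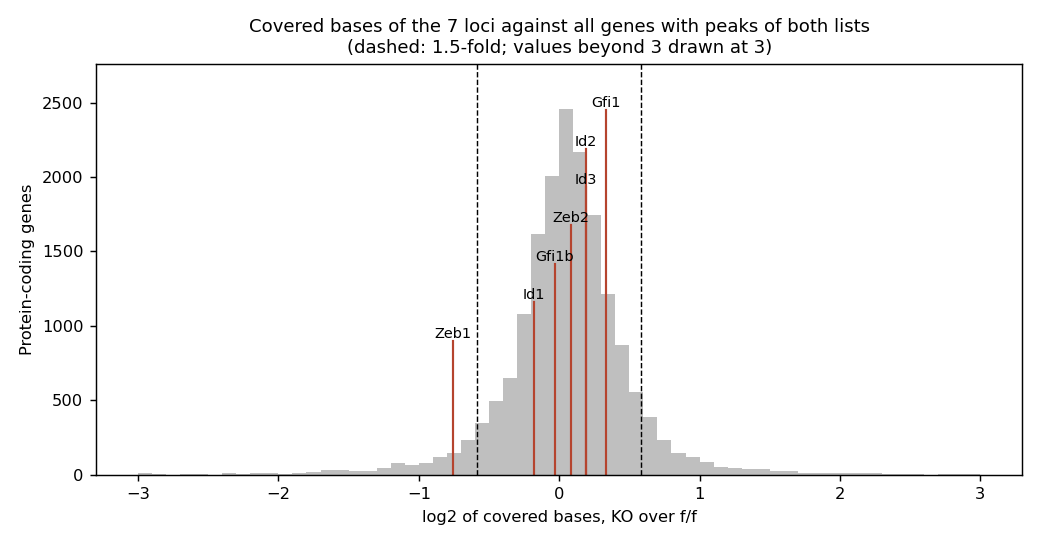
Histogram of the log2 ratio of covered bases, KO over f/f, for 17490 protein-coding genes with 100 kb flanks and peaks of both lists (y axis, number of genes), with the 7 repressor genes as labelled lines whose heights carry no value. Zeb1 lies outside the dashed 1.5-fold lines, and the other 6, with ratios of 0.884 (Id1) to 1.26 (Gfi1), lie between them.

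**Figure D2:**
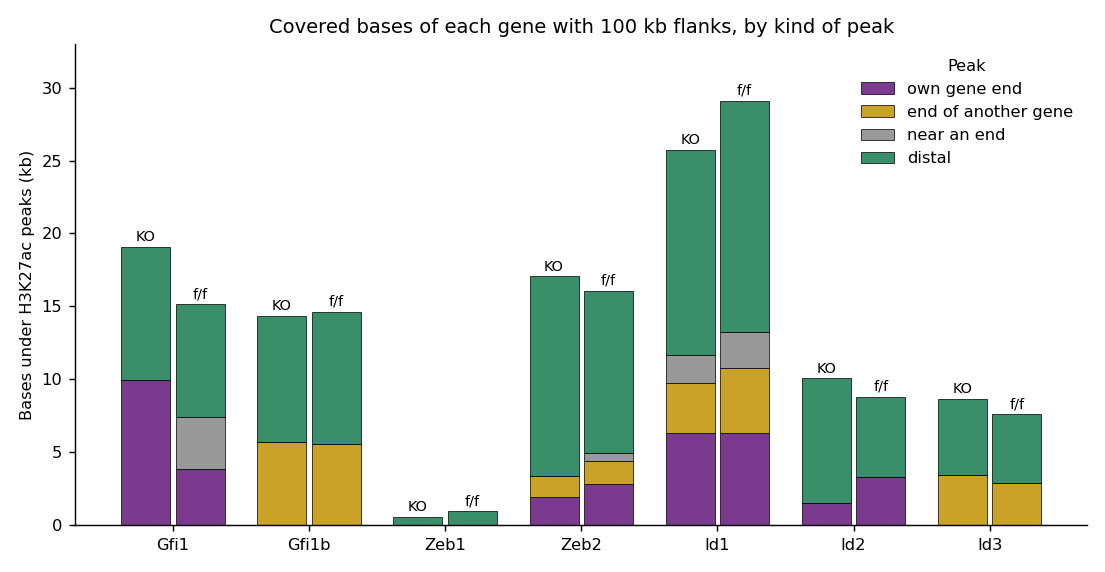
Bases under peaks (kb, stacked bars from 0) for each gene with 100 kb flanks, KO on the left and f/f on the right of each pair, by kind of peak: within 1000 bp of the gene's own ends, within 1000 bp of another gene's end, 1000 to 2000 bp from an end, or distal (over 2000 bp from any end). Id1 has the most covered bases in both lists, Zeb1 the fewest, and the share from the gene's own ends differs most at Gfi1. The difference at Gfi1 depends on the 1000 bp limit, as the weak f/f peak of 3565 bp lies 1030 bp from the gene's end and is not counted there.

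Gene-end peaks, within 1000 bp of either end of a gene, were present in both lists at Gfi1, Zeb2, Id1 and Id2 and in neither at Gfi1b, Zeb1 and Id3. Such a peak was found in both lists for 47.6% of all protein-coding genes and in neither for 47.0%. So 4 of 7 members were marked at an end in KO and 4 of 7 in f/f, against 50.3% of genes in KO and 50.4% in f/f, and no member changed between the lists.

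Gfi1 (chr5:107716655-107725805, minus strand) had the widest gene-end peak of the 7 genes in KO, while in f/f that of Id1 was wider. The shape of the Gfi1 peak differed between the libraries. In KO a single peak of 9914 bp ran over the start and most of the gene (chr5:107719654-107729567). It was the second in width of all KO peaks, rank 2 of 37234. In f/f a strong peak of 3807 bp lay over the start (chr5:107723144-107726950) and a weak one of 3565 bp further into the gene (chr5:107717685-107721249), 1894 bp apart. They held ranks 453 and 637 in width of 34272. The region therefore held 9914 bp under peaks in KO and 7372 bp in f/f, a ratio of 1.34 that is short of 1.5. The f/f peaks spanned 9266 bp from end to end, so that the gap accounts for part of the difference in covered bases. On the upstream side the KO peak reached 3762 bp before the outermost listed start, and the f/f peak 1145 bp, which left 2617 bp covered in KO alone. On the downstream side 1969 bp were covered in f/f alone. The -log10 p of the start peak was 13.5 in KO and 43.9 in f/f, each above its own list's median. Its fold enrichment was 1.66 in KO and 2.12 in f/f, below the list medians of 3.09 in KO and 3.51 in f/f. The promoter sequence shown above and a second listed start inside the gene (position 107724343) lay under peaks in both lists.

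Around Gfi1, 5 distal regions had peaks of both lists, and 1 weak KO peak of 661 bp stood alone, 41.4 kb upstream inside the neighbouring gene Evi5. The widest shared distal region, 22.4 kb upstream in KO and 23.0 kb in f/f, also lay in Evi5, with strong peaks of 3037 bp in KO and 2260 bp in f/f. Further upstream in Evi5 were strong peaks of 1542 bp in KO and 1981 bp in f/f and weak ones of 1742 bp in KO and 1512 bp in f/f. Downstream of the gene, 17.1 kb beyond its end, a strong peak was 1183 bp wide in KO and 1306 bp in f/f. The window as a whole was covered at 9.13% in KO and 7.25% in f/f, a ratio of 1.26. It was 1.68, past 1.5-fold, with peaks of a -log10 q of at least 5, where the weak f/f peak in the gene is left out. The ratio turned to 0.332 when peaks below 3-fold enrichment were dropped. The gene-end peaks of both lists are then left out, as is the KO peak of 3037 bp in Evi5 (fold 2.30) but not the f/f peak of 2260 bp there (fold 3.13), so that 1183 bp remained in KO and 3566 bp in f/f. Without the gene-end peak of each list the order turned, to 9185 bp in KO and 11360 bp in f/f, where the f/f sum still includes the second peak in the gene. The distal peaks of the window covered 9185 bp in KO and 7795 bp in f/f, so the turn rests on that second f/f peak.

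Gfi1b (chr2:28609450-28621982, minus strand) had no peak at its start, and the promoter with the GATA and GFI matches was bare in both lists. A weak peak lay inside the gene, 2412 bp from the start in KO and 2262 bp in f/f, with widths of 1593 bp in KO and 1760 bp in f/f. A weak f/f peak of 616 bp, 9.69 kb beyond the other end of the gene, had no KO peak within 1 kb, and a weak KO peak of 377 bp in Ak8, 85.2 kb upstream, had no f/f peak. The rest of the window was shared: peaks at the ends of Ralgds, Gtf3c5, Tsc1 and at Spaca9 and Ak8, and distal peaks in Ralgds, the widest of 2976 bp in KO and 3109 bp in f/f. Covered bases came to 14329 bp in KO and 14642 bp in f/f, or 6.74% in KO and 6.89% in f/f, the ratio nearest to 1 of the 7 members. All but 1593 bp of this in KO, and all but 1760 bp in f/f, lay outside the gene.

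**Figure D3:**
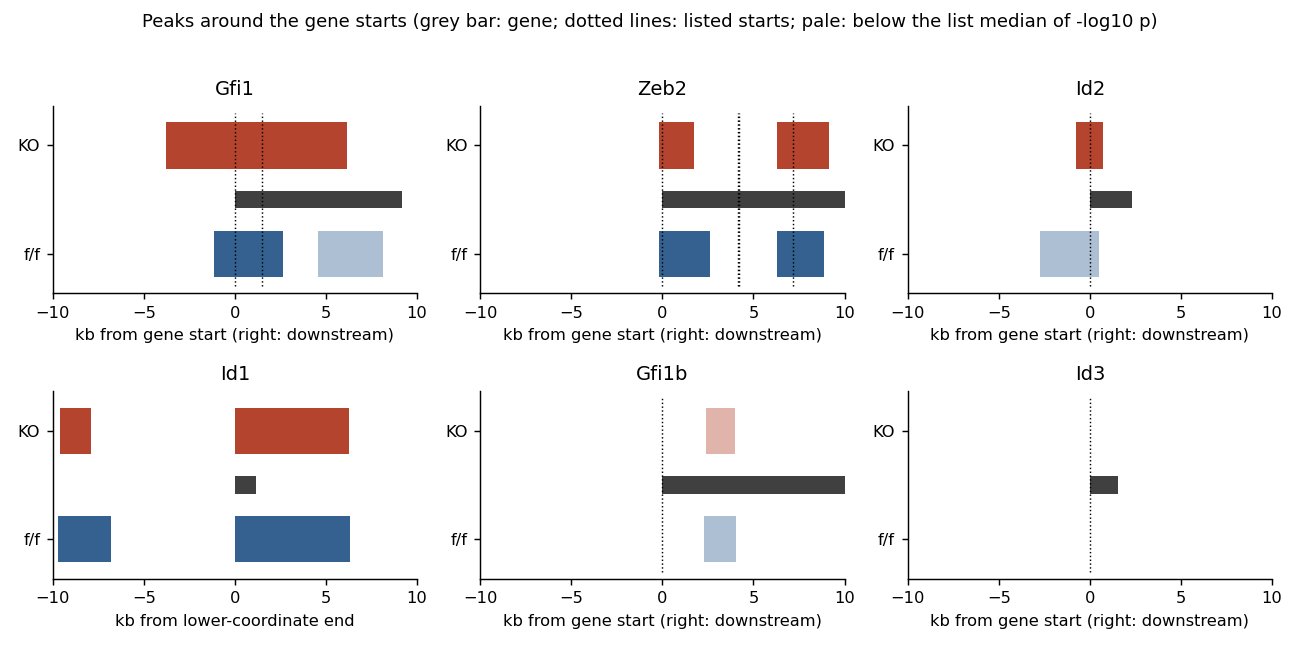
Peaks within 10 kb of the start of 6 of the genes (x axis, kb from the start, downstream to the right; for Id1, whose strand is not in the tables used, kb from the lower-coordinate end), with KO peaks above and f/f peaks below the gene. The single KO peak over Gfi1 faces 2 f/f peaks, the Id2 peak is narrower in KO, the Id1 peaks match, and Gfi1b and Id3 have no peak at the start in either list.

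Zeb1 (chr18:5591327-5775468), a gene of 184142 bp, held no peak of either list. A gene body without a peak in either list was found for 23.9% of the 2429 protein-coding genes of 100 kb or longer. The nearest calls on the upper-coordinate side were a weak KO peak of 564 bp, 30.4 kb beyond the gene, and a weak f/f peak of 952 bp, 44.0 kb beyond it, and the 2 did not overlap. On the lower-coordinate side the nearest peak ended 166 kb away in each list, so that Zeb1 sat in an empty stretch that measured 381 kb in the KO list and 394 kb in the f/f list. The first peak of chromosome 18 was at position 3280777 in KO and 5333703 in f/f, with 41 peaks before Zeb1 in KO and 4 in f/f. The blank start of the f/f list ended 158 kb before the Zeb1 window, and its part in the Zeb1 values was not tested.

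Zeb2 (chr2:44983512-45117442, minus strand), the related gene, held 6 peaks of each list, none within 65893 bp of its lower-coordinate end. At the outermost start a strong peak was 1911 bp wide in KO (chr2:45115722-45117632) and 2822 bp in f/f (chr2:45114821-45117642), a ratio of 0.677 that is just short of 1.5-fold narrower. Both peaks ended at nearly the same point upstream, 190 bp before the start in KO and 200 bp in f/f, and the bases missing in KO lay inside the gene, where the peak reached 1720 bp in KO and 2621 bp in f/f. An internal listed start (position 45110277) lay under a second strong peak, of 2881 bp in KO and 2585 bp in f/f, while 2 listed starts between them (positions 45113253 and 45113279) had no peak in either list. Counting from any gene end, this second peak is distal, and it was the widest distal region of the locus.

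Inside Zeb2 another 3 regions were shared. The one farthest from the start had 945 bp in KO and 1022 bp in f/f. The middle one had 1530 bp in KO and 1456 bp in f/f. The one nearest to the start, 16250 bp from it, had 815 bp in KO and 1075 bp in f/f. Weak intragenic peaks stood alone in each list, 1 of 1107 bp in KO and 1 of 781 bp in f/f. Beyond the lower-coordinate end, which is the 3' end, weak peaks of 2092 bp in KO and 1816 bp in f/f lay 20.7 kb away in the KO list and 20.9 kb in the f/f list. A weak f/f peak of 546 bp, 1.21 kb from that end, had no KO counterpart. Upstream of the start the flank was nearly bare, with a weak peak of 1284 bp in KO, 79.1 kb away, and one of 446 bp in f/f, 61.3 kb away. In total 17048 bp were covered in KO and 16075 bp in f/f, a ratio of 1.06. The neighbour Gtdc1, a glycosyltransferase gene, had a gene-end peak of 1476 bp in KO and 1580 bp in f/f and a weak KO peak of 713 bp alone. The Zeb2 window held 12 peaks in KO and 12 in f/f, and the Zeb1 window 1 in each list.

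**Figure D4:**
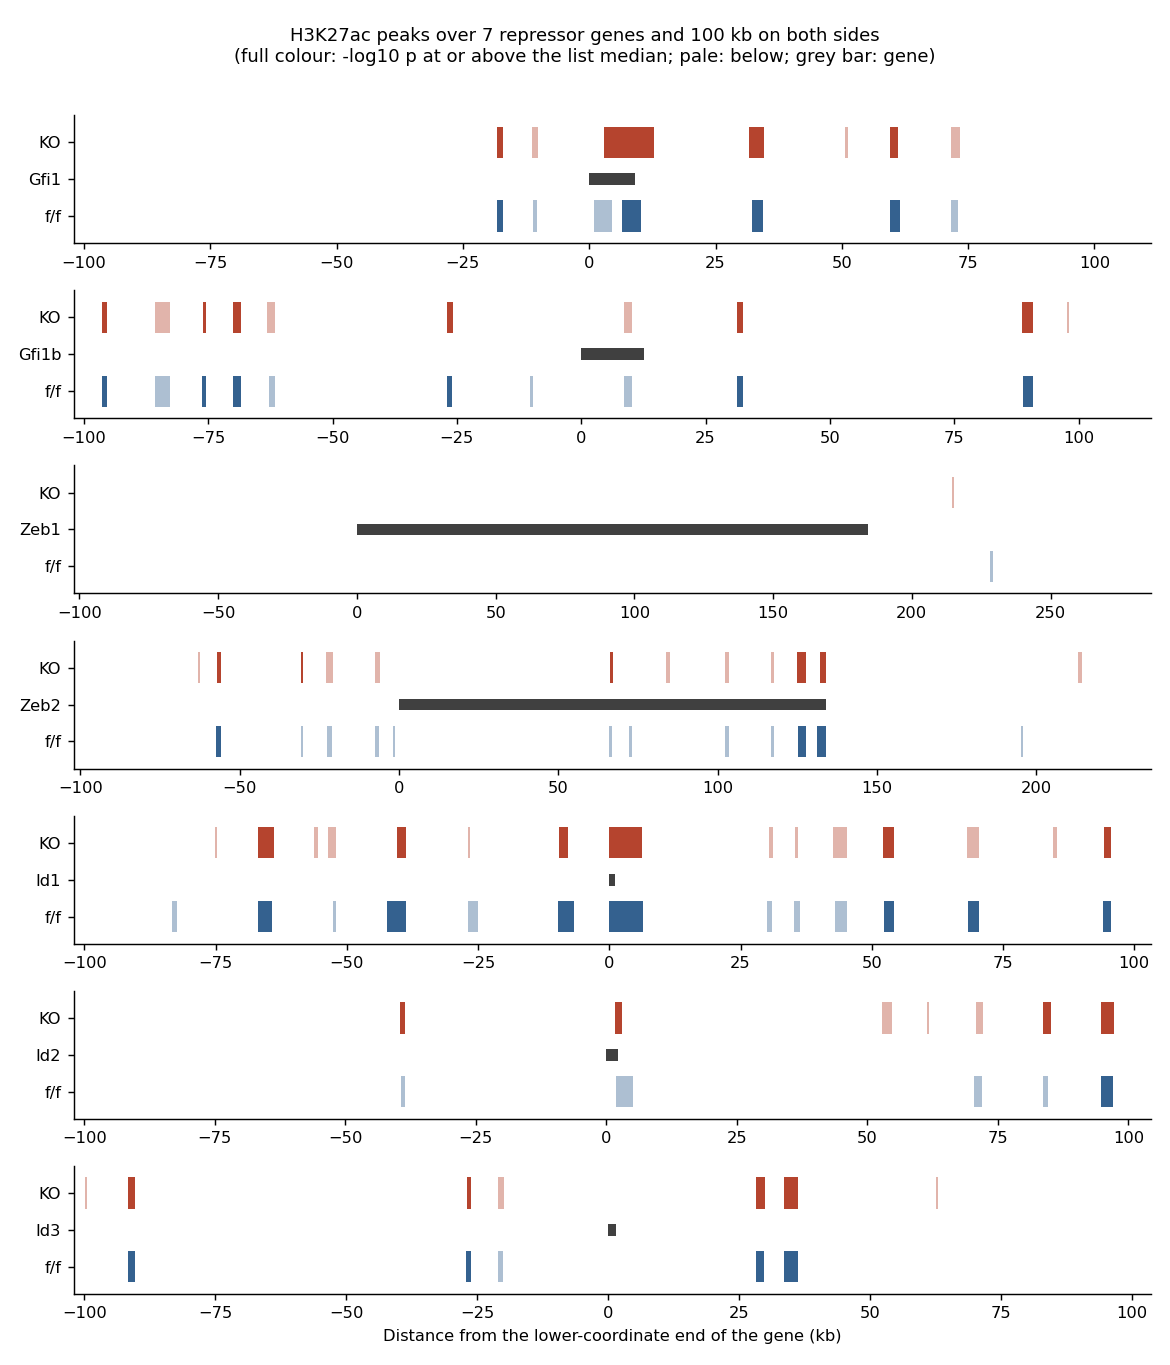
Peaks of the KO list (above) and the f/f list (below) over each gene (dark bar) and 100 kb on both sides, by distance in kb from the gene's lower-coordinate end. Full colour marks strong and pale colour weak peaks; every strong peak has a counterpart in the other list, and Zeb1 has 1 pale peak per list.

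Id1 (chr2:152736251-152737410) had the most covered surroundings of the 7 genes, at 12.8% of bases in KO and 14.5% in f/f, in 15 KO and 13 f/f peaks. The gene itself, of 1160 bp, lay under a strong broad peak of 6297 bp in KO (chr2:152736233-152742529) and 6326 bp in f/f (chr2:152736269-152742594). This peak was rank 28 in width among KO peaks and rank 46 among f/f peaks, and 6261 bp were common to both. The ratio of covered bases was 0.995. On the lower-coordinate side, towards and inside H13, a signal peptide peptidase gene, widths differed in 4 shared regions past 1.5-fold. A strong peak 7.92 kb away in KO and 6.79 kb away in f/f was 1680 bp wide in KO and 2902 bp in f/f (ratio 0.579). Another strong peak inside H13 was 1615 bp wide in KO and 3674 bp in f/f (ratio 0.44). A further, weak peak near the H13 end covered 497 bp in KO and 1809 bp in f/f. A weak region in H13 went the other way, with 1419 bp in KO and 599 bp in f/f. The strong peak over the other H13 end stayed within 1.5-fold, at 2973 bp in KO and 2634 bp in f/f. Of all shared distal regions, 12.9% were at least 1.5-fold wider in KO and 13.1% at least as much narrower. Of all shared gene-end regions, 5.79% were wider and 5.27% narrower by that much.

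On the upper-coordinate side of Id1, within the anti-apoptotic gene Bcl2l1, 4 of 6 shared regions were within 1.5-fold. A strong peak was 2001 bp wide in KO and 2042 bp in f/f. A neighbouring region had 2506 bp in KO and 2310 bp in f/f, and the next 2248 bp in KO and 2224 bp in f/f. Past 1.5-fold were 2 weak ones, with 645 bp in KO and 1054 bp in f/f, and with 601 bp in KO and 1006 bp in f/f. Over the whole window 25732 bp were covered in KO and 29105 bp in f/f, of which 7311 bp were under f/f peaks alone. Peaks with no partner within 1 kb were 3 weak KO peaks, of 411, 707 and 849 bp, and 1 weak f/f peak of 1093 bp.

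Id2 (chr12:25093799-25096092, minus strand), an inhibitor known for its part in dendritic and innate lymphoid cells, had the only shared gene-end region of the 4 that was past 1.5-fold. Its start peak was 1488 bp wide in KO (chr12:25095361-25096848) and 3263 bp in f/f (chr12:25095580-25098842), a ratio of 0.456. Among all 9701 shared gene-end regions, 5.27% were at least 1.5-fold narrower in KO and 5.79% at least as much wider. Within the gene the edges were close, 731 bp after the start in KO and 512 bp in f/f, and upstream the peak reached 756 bp before the start in KO and 2750 bp in f/f. The 250 promoter bases shown above were under the peak in both lists. The KO call was strong (-log10 p 18.8) and the wider f/f call weak (11.0), each against its own list's median.

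The distal peaks of Id2 covered 8564 bp in KO and 5534 bp in f/f, a higher sum in KO, unlike the start peak. More than 50 kb upstream of the gene, in sequence without another protein-coding gene, weak KO peaks of 1887 and 463 bp stood alone. Another region there had 1472 bp in KO and 848 bp in f/f, 81.4 kb from the gene in both, and a weak one 1326 bp in KO and 1476 bp in f/f. Towards the other side, a region in Kidins220 had 977 bp in KO and 916 bp in f/f. The strong peak farthest upstream, 92.5 kb away in both lists, was 2439 bp wide in KO and 2294 bp in f/f. The whole window had 10052 bp covered in KO and 8797 bp in f/f, a ratio of 1.14. With 25 kb flanks, where the start peak is all that was called, 1488 bp remained in KO and 3263 bp in f/f.

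Id3 (chr4:136143822-136145392, plus strand) had no peak over the gene or its promoter in either list. The nearest calls lay upstream, a weak region of 1112 bp in KO and 979 bp in f/f about 20 kb away, at 19.9 kb in the KO list and 20.0 kb in the f/f list. A strong peak 26.1 kb upstream was 902 bp wide in KO and 1047 bp in f/f. On the other side, E2f2, a cell cycle transcription factor gene, had a strong gene-end peak of 1717 bp in KO and 1454 bp in f/f and a strong peak within it of 2759 bp in KO and 2691 bp in f/f. At the far edge, the ribosomal protein gene Rpl11 had a gene-end peak of 1318 bp in KO and 1426 bp in f/f. Covered bases came to 8659 bp in KO and 7597 bp in f/f, and peaks in 1 list alone, of 442 and 409 bp, were both weak KO calls. Id4, the remaining gene of the Id family, had no peak of either list within 100 kb.

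Across the 7 windows, 46 of 59 KO peaks overlapped an f/f peak by at least 1 bp (78.0%, 95% Wilson interval 65.9 to 86.6), and 47 of 53 f/f peaks overlapped a KO peak (88.7%, 77.4 to 94.7). Over all peaks the shares were 77.4% in KO and 83.8% in f/f. Intervals cover counting error only and treat each peak as independent, though the peaks share 7 windows and 1 library per genotype. All 29 strong KO peaks and all 25 strong f/f peaks of these windows had an overlapping partner, as did 95.8% of all strong KO peaks and 97.5% of all strong f/f peaks. Of the weak peaks, 17 of 30 KO and 22 of 28 f/f peaks had one, against 59.1% of all weak peaks in KO and 70.1% in f/f.

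Of 43 distal KO peaks in these windows, 12 had no f/f peak within 1 kb (27.9%, interval 16.7 to 42.7), and of 36 distal f/f peaks 5 had no KO peak (13.9%, 6.08 to 28.7). The same held for 28.4% of all distal KO peaks and 20.4% of all distal f/f peaks. All 12 KO peaks were weak, with a -log10 p of 2.89 to 4.76 and widths of 377 to 1887 bp, and so were the 5 f/f peaks, at 4.19 to 8.95 and 446 to 1093 bp. No strong distal peak was in 1 list alone, in either list, among 16 in KO and 13 in f/f, against 6.45% of all strong distal peaks in KO and 3.56% in f/f. Of the weak distal peaks 12 of 27 in KO and 5 of 23 in f/f were alone, against 41.0% of all in KO and 29.6% in f/f. Of the 31 shared distal regions, 2 were at least 1.5-fold wider in KO and 3 at least 1.5-fold narrower, with a median ratio of 1.03. All 3 narrower regions and 1 of the 2 wider ones lay in the Id1 window. Among 18114 shared distal regions genome-wide, 12.9% were wider and 13.1% narrower by that much, with a median ratio of 0.989.

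**Figure D5:**
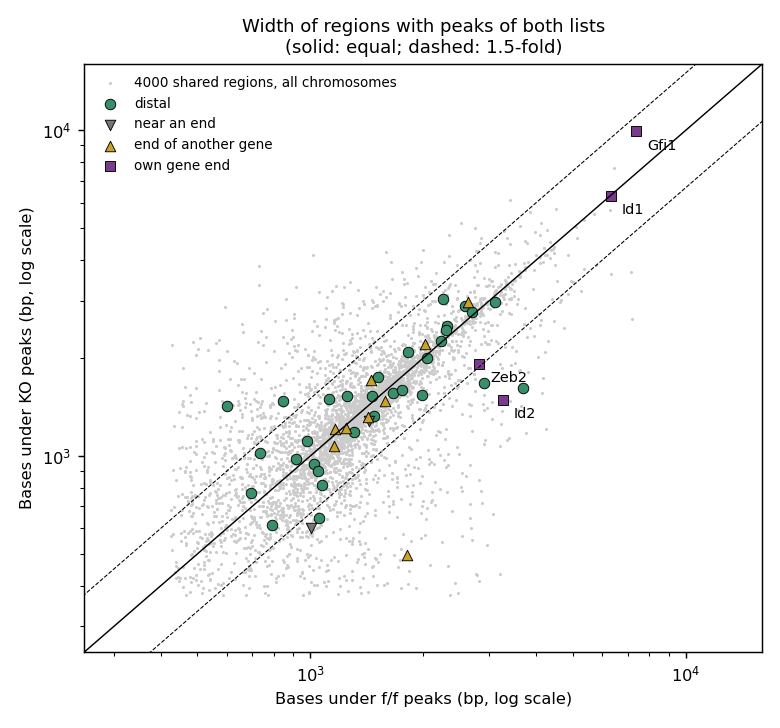
Bases under KO peaks (y axis) and under f/f peaks (x axis) for each region with peaks of both lists, on log scales, with the regions of the 7 windows by kind (coloured) over 4000 of all shared regions drawn at random (grey). The gene-end region of Id2 lies below the lower dashed 1.5-fold line, that of Zeb2 close to it, that of Id1 on the line of equality and that of Gfi1 above it.

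The 7 genes were then set beside 39 other genes of their pathways, in 3 lists: corepressors, related factors and known targets. With 100 kb flanks, 36 of the 39 had a peak, 1 was at least 1.5-fold higher in KO and 4 were at least 1.5-fold lower, against 10.2% and 7.52% of all genes. Of the 12 corepressor genes 11 had peaks, 9 with more bases in KO and 2 with fewer, and 0 past 1.5-fold either way, with a median ratio of 1.16. Of all genes with a peak, 59.0% had more bases in KO and 41.0% fewer. Rcor1, which encodes the CoREST partner of GFI1, had 27872 bp in KO and 20392 bp in f/f, and Kdm1a, the demethylase gene, 2582 bp in KO and 3102 bp in f/f. The corepressor genes of the ZEB proteins, Ctbp1 (7405 bp in KO and 6007 bp in f/f) and Ctbp2 (13337 bp in KO and 11148 bp in f/f), were on the same side as Rcor1. The 11 with peaks also had a gene-end peak in both lists, and Runx1t1 had none. Over all protein-coding genes the share with one in both lists was 47.6%.

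Of 11 related factor genes 10 had peaks, and 3 were past 1.5-fold, all lower in KO. Tcf4, an E protein that ID proteins bind, had 3605 bp in KO and 14613 bp in f/f, a ratio of 0.247. Tcf12, another E protein gene, had 12349 bp in KO and 20337 bp in f/f, and Tal1, whose product pairs with E proteins, 5978 bp in KO and 9352 bp in f/f. Tcf3, the third E protein gene, had 17805 bp in KO and 14879 bp in f/f. The median ratio of this list was 1.00, with 5 genes higher and 5 lower in KO. Gene-end peaks were found for 9 of the 11 in KO and 10 in f/f, against 50.3% of all genes in KO and 50.4% in f/f.

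Of 16 genes known as targets of GFI1, GFI1B or ZEB proteins 15 had peaks, with a median ratio of 1.08, 8 being higher in KO and 7 lower. Irf8, a monocyte and dendritic cell factor gene, was past 1.5-fold lower, with 16247 bp in KO and 24513 bp in f/f and a peak at its end in the f/f list only. Bcl6, a repressor gene best known from germinal centre B cells, was past 1.5-fold higher, with 10969 bp in KO and 6412 bp in f/f. A gene-end peak was found for 8 of the 16 in KO and 12 in f/f, against 50.3% of all genes in KO and 50.4% in f/f. Epcam, with 5775 bp in KO and 3852 bp in f/f, stood just inside the 1.5-fold limit. Its gene-end peak was in the f/f list only.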

How the data were processed

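H3K27ac peak lists of 1 Gata2 KO and 1 Gata2 f/f library of MA9 cells were used. The submitters' processing notes name the build mm10 and the tools MACS2, BWA and SAMtools, without their roles. No version, option, control library or number of reads is given in the sources used here, and depth is therefore unknown. The broad layout of the deposited lists carries a score, a fold enrichment (a ratio over background), and for each peak the p-value and q-value as -log10, all from the authors. The score deposited by the authors was not used. The deposited fold and -log10 values rank peaks within a list, and some stricter peak sets cut both lists at the same value. Their size depends on depth, so values set side by side and sets cut at a fixed value carry that limit. More reads or better enrichment give more and wider calls, so covered bases follow the calling as well as the chromatin.

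Only peaks on the autosomes (1 to 19), X and Y entered, with starts made 1-based. The KO list held 37302 peaks and the f/f list 34313 before this. Genes came from RefSeq GRCm38.p6. Gene ends are the table's start and end, so 3' ends count too, and strand comes from the promoter table where it lists the gene. A gene-end peak lies within 1000 bp of an end, a distal peak over 2000 bp from any protein-coding gene end, and a peak is alone with no peak of the other list within 1000 bp. Overlapping peaks of both lists were joined to regions. A value is called past 1.5-fold on covered bases, with no p-value, as each genotype has 1 library. Scripts in Python 3.11.15 (numpy 2.4.6, pandas 2.3.3) were tested on simulated intervals, and bedtools 2.31.1 gave the same covered bases at all 7 loci. The members, lists and motifs were chosen with earlier results of these data known. The named genes are the 7 members, Id4, neighbours by their gene-end peaks, and pathway genes past 1.5-fold. The regions planned are the gene-end regions, the 3 widest distal regions per locus, and strong distal peaks in 1 list alone, of which there were none. Rcor1, Kdm1a, Ctbp1, Ctbp2, Tcf3, Epcam, the marker genes named, the weak peaks in 1 list alone and further regions were chosen after their values were seen. Alternatives were stricter peak sets, other flanks, windows, gaps and folds, and for the summed ratio also leaving out 1 locus at a time.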

Additional observations from a re-analysis of the deposited data

How the results depend on the processing

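The summed ratio of covered bases, KO over f/f, was 1.03 and ran from 0.707 to 1.10 over 16 other settings, below 1 in 7 and above 1 in 9. These settings include leaving out each of the 7 loci in turn. That gave the highest value (without Id1) and went below 1 only without Gfi1 (0.99). Under the other settings the ratio was above 1 only in the following cases. It was 1.05 with the strongest 20000 peaks, 1.09 with bases over 2000 bp from any gene end, and 1.03 with peaks up to 3000 bp apart joined. The lowest value came from peaks of at least 3-fold enrichment, and the cause was not tested. Loci at least 1.5-fold higher in KO numbered 0, and 1 (Gfi1) with a -log10 q of at least 5 or with the strongest 20000 peaks. Loci at least 1.5-fold lower numbered 1, and 0 with the strongest 20000 peaks or a fold of 2, 3 with at least 3-fold enrichment (Gfi1, Zeb1 and Id1) and 2 with 50 kb flanks (Zeb1 and Id2). With 25 kb flanks the 1 lower locus was Id2. Shares of all genes were counted only with the reported peaks and flanks, so counts under other peak sets or flanks have none beside them. The median fold enrichment of all peaks was 3.09 in KO and 3.51 in f/f. The Gfi1 ratio turned to 0.332 with at least 3-fold enrichment, where the gene-end peaks of both lists and the KO but not the f/f peak at one Evi5 region are left out. The Id2 ratio turned to 0.456 with 25 kb flanks and 0.59 with 50 kb flanks, which leave out its distal peaks over 50 kb away. The Zeb1 ratio could not be formed where a list kept no peak. Of 59 locus values under other settings, 13 lay on the other side of 1 from the reported ratio: 5 at Zeb2, 4 at Id2, 2 at Id3 and 2 at Gfi1. The second at Gfi1 was 0.809 without its gene-end peaks, where the f/f sum still held the weak f/f peak in the gene.

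Distal peaks alone numbered 12 in KO and 5 in f/f. For KO and then f/f they were 0 and 3 at a -log10 q of 5 or more, 3 and 1 with the strongest 20000 peaks, 1 and 8 with at least 3-fold enrichment, and 0 and 0 among strong peaks. With narrower windows they were 1 in KO and 2 in f/f (25 kb) and 3 and 3 (50 kb). Which list has more therefore depends on the threshold. Shares over all distal peaks were counted only for the reported peaks, all, strong and weak, so the other counts have none beside them. Members with a gene-end peak numbered 4 in KO and 4 in f/f, and 1 (Id2) in each with at least 3-fold enrichment. Gene-end regions wider in KO by 1.5-fold numbered 0, and 1 with a -log10 q of at least 5 or the strongest 20000 peaks, and the narrower Id2 region was counted under all 4 peak thresholds. For gene ends too, shares over all genes or regions were counted only with the reported peaks and window. Joining peaks of a list up to 3000 bp apart, and leaving out own gene-end peaks, were chosen after seeing the data. No paired analysis was possible because each genotype has 1 library.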
